A study of Mus musculus with 12 samples.

Results

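The genes described here encode the proteins of the cytosolic ribosome. They were taken from the count table as the rows whose mouse Ensembl identifiers carry protein-coding symbols starting with *Rpl*, *Rplp* or *Rps* and a number, or *Rpsa*, leaving out pseudogenes, the Rps6 kinases, *Rps27l* and *Rps19bp1*. This gave 84 of 55487 genes: 43 of the large subunit, 31 of the small subunit, 3 of the P-stalk and 7 paralogs of other members. Messenger RNA was measured in im-TEC, mouse kidney tubular epithelial cells conditionally immortalized with SV40 large T antigen, in 4 groups of 3 libraries. All cells had been kept at 33 °C with interferon-gamma and spent 7 days at 37 °C without it before seeding. The control group was untreated, the TGFβ group received TGFβ at 10 ng/mL, the inhibitor group received 50 µM of 5-amino-1-methylquinolinium, which blocks nicotinamide N-methyltransferase (NNMT), and the combined group received both, all for 48 h. The model is a single immortalized line that carries a viral oncogene.

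A ribosome joins a small subunit, which reads the mRNA, to a large subunit, which forms the peptide bonds, and each ribosomal protein is present, with few exceptions, in 1 copy per particle. The mRNAs of these proteins share a tract of pyrimidines at their 5′ end, the terminal oligopyrimidine (TOP) tract, through which mTOR and LARP1 set how actively they are translated. Translation itself was not measured here, only mRNA abundance. TGFβ is the main cytokine of kidney fibrosis, in which tubular cells change shape and matrix is made.

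The TOP tract is shown because it is the sequence that these genes are known for. In the RefSeq sequences around annotated starts (GRCm38.p6), 64 of the 84 genes were matched. A tract was counted where the annotated first base was C and was followed without a break by C or T, for at least 5 bases in all, read on the strand of the gene. It was present in 14 of 64 ribosomal protein genes (21.9%) and in 813 of 27025 genes overall (3.01%). In both counts a gene with several annotated starts was scored by the start with the longest tract, which is also the start shown. Each line below gives 15 bases before and 15 bases from the annotated start, with the tract in capitals. *Rpl14*, *Rpl35a*, *Rps15a* and *Rps21* are the 4 genes with a tract that rose with TGFβ, *Rpl15* has the longest tract, and *Rps6* is a core protein that was almost without counts.
Rpl14, chr9:120571502-120571531, plus strand: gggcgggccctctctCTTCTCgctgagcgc
Rpl35a, chr16:33056467-33056496, plus strand: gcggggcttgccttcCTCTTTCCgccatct
Rps15a, chr7:118116133-118116162, minus strand: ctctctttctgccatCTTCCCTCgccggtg
Rps21, chr2:180257364-180257393, plus strand: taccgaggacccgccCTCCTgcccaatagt
Rpl15, chr14:18270972-18271001, minus strand: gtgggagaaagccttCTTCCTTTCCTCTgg
Rps6, chr4:86857353-86857382, minus strand: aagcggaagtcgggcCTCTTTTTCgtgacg
A gene without a match in this window lacks only these letters at this annotated base.

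The libraries held 2584117 to 11866903 counts in genes, and TGFβ replicate 3 was the shallowest and TGFβ replicate 2 the deepest. Levels are CPM, counts scaled to library size, with the sizes adjusted by TMM, which takes most genes as unchanged between libraries. Of 12 tubular markers, 10 reached 1 CPM in some library, among them *Pax8*, *Pax2* and *Cdh16*, but the epithelial surface gene *Epcam* had 0 counts and *Cdh1* had 9 in all. The fibroblast list summed to 3.63 to 7.37 CPM in control and 149 to 187 CPM with TGFβ, nearly all of it the collagen gene *Col1a1*, while *Pdgfra* and *Lum* were at 0. The tubular markers did not move together. From control to TGFβ the mean of *Aqp1* went from 1013 to 25.2 CPM and that of *Cdh16* from 213 to 76.0 CPM. *Krt8* went from 62.6 to 288 CPM and *Cdh6* from 926 to 1728 CPM. The endothelial list did not reach 1 CPM. In the immune list *Cd68* had 7.20 CPM in control, and in the podocyte list *Podxl* had 127 CPM. Mitochondrially encoded transcripts took 7.05 to 8.08% of counts in control and 11.3 to 12.4% in the inhibitor group. In bulk RNA, fewer cells of a type and less RNA per cell cannot be told apart.

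How well a ribosomal protein gene could be counted differed widely between members. Their many processed pseudogenes copy the mRNA, so a read from its end can align equally well in several places, and the deposited tables held 0 reads in the class for alignments that are not unique. *Rps6*, the substrate of S6 kinase, had 2 counts over all 12 libraries and *Rpl24* had 52, although both are core proteins of every ribosome. *Rps3a1* had 70 counts, while its pseudogene *Rps3a3* had 29828. *Rps13* had 551 counts and *Rps13-ps2* had 22025. These pairs cannot be told apart with certainty, and levels are therefore compared between groups for a gene, and not between genes.

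To describe this, the last 300 bases up to the final coding base of each transcript were cut into words of 50 bases and searched in all other annotated mouse transcripts. A word counted as shared if found on either strand in any other gene, overlapping genes included. The untranslated 3′ part, nearer to the transcript end that the reads come from, was left out, so the share is a rough guide. In 36 genes every word was also present in another gene, and these had a median of 535.5 counts over all libraries. The 32 genes with 50 to under 100% of words shared had a median of 5960 counts, and the 16 genes with less had 17704.5. Every word of *Rps6* and *Rpl24* was shared. Of the words of *Rpl4*, which had 73229 counts, 6.77% were shared. Other genes went the other way. Every word of *Rpl13* was shared and it had 15878 counts, while *Rps29*, with 48.2% shared, had 192. The counts ran from 2 to 15878 with every word shared and from 0 to 73229 with under 50% shared. Whether sharing lowered the counts was not tested. Across the 84 genes the share and the count had a Spearman's rho of -0.46, given as a description, since all come from the same libraries and aligner.

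**Figure D1:**
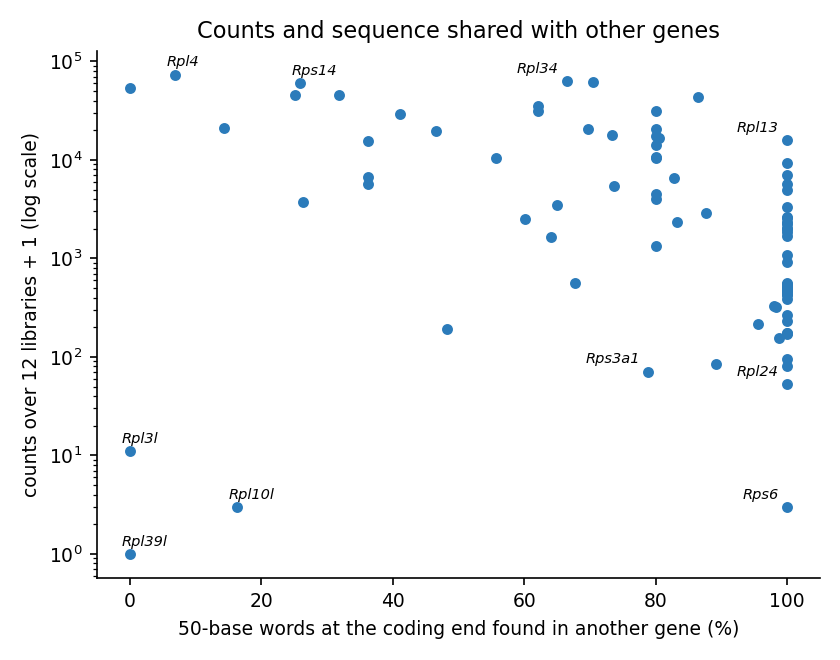
Counts over the 12 libraries plus 1 (log scale) against the percentage of 50-base words at the coding end that occur in another gene, with 1 point for each of the 84 genes. *Rps6* and *Rpl24* lie at 100% with 2 and 52 counts, and *Rpl4* lies at 6.77% with 73229 counts. *Rpl39l*, *Rpl3l* and *Rpl10l* share little and have at most 10 counts.

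A filter on low counts left 79 of the 84 genes for testing, 25 of them with a mean of 100 CPM or more. The 5 left out were *Rps6*, *Rpl24* and the paralogs *Rpl3l*, *Rpl10l* and *Rpl39l*, of which *Rpl39l* had 0 counts. The 3 paralogs are known mainly from muscle (*Rpl3l*) or testis.

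Summed over all 84 genes, ribosomal protein transcripts took 0.752, 0.781 and 0.776% of counts in genes in the control libraries and 0.729, 0.718 and 0.745% in the inhibitor libraries. They took 0.934, 1.18 and 0.916% in the TGFβ libraries and 0.905, 1.00 and 0.952% in the combined libraries. Every library with TGFβ thus lay above every library without it. The means were 0.769 ± 0.0156% (SD, n = 3) in control, 0.731 ± 0.0133% with the inhibitor, 1.01 ± 0.146% with TGFβ and 0.954 ± 0.0493% with both. With mitochondrially encoded transcripts taken out of the total, control and inhibitor were at 0.833 and 0.829%. Other shares moved with TGFβ as well. Reads outside annotated genes made up 24.1 to 26.8% in the libraries without TGFβ and 21.1 to 22.9% in those with it. The nuclear RNA *Malat1* took 2.07 ± 0.0619% of counts in control and 1.35 ± 0.323% with TGFβ, and 3.43 ± 0.146% with the inhibitor and 2.44 ± 0.168% with both (SD, n = 3). The part of these shares in the result was not tested. The sum has no test of its own, because the members were chosen as a group.

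**Figure D2:**
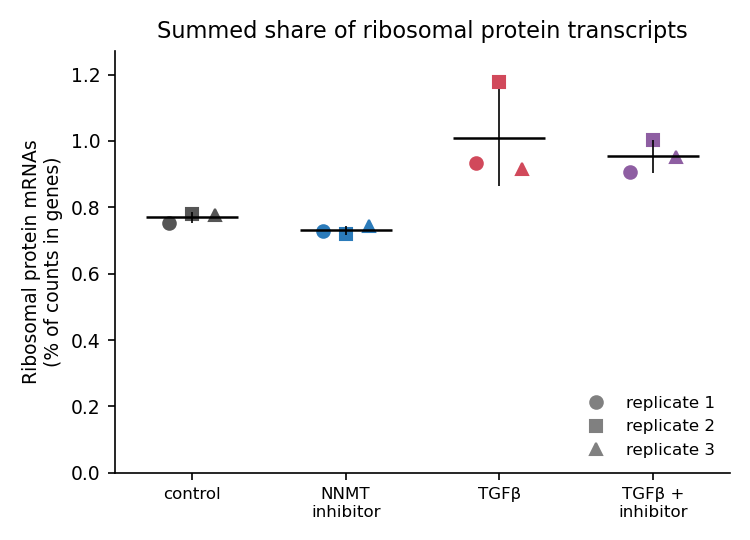
Percentage of counts in genes that fell in the 84 ribosomal protein genes, by group, with 1 symbol per replicate, the group mean as a horizontal line and 1 SD as a vertical line (n = 3). The 6 libraries with TGFβ lie between 0.905 and 1.18%, above the 6 without it, and TGFβ replicate 2 is the highest.

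The first comparison asked what TGFβ changed in cells without the inhibitor. Ribosomal protein mRNAs rose with TGFβ in 27 of 79 tested genes and fell in 1, *Rpl7*, by edgeR's quasi-likelihood test at a Benjamini-Hochberg adjusted p below 0.05. Among all 13581 genes tested, 19.4% rose and 17.1% fell. The median log2 fold change was 0.45 over the ribosomal protein genes, which is 1.36-fold, and 0.02 over all genes, and 68 of the 79 estimates were above 0. Both subunits took part: 13 of 42 large-subunit genes rose and 1 fell, 10 of 30 small-subunit genes rose and 0 fell, and 2 of 3 P-stalk genes rose. Leaving out any 1 of the control replicates 1, 2 or 3 lowered the count of genes that rose to 16, and scaling by library size alone also gave 16. With only these 2 groups in the fit 15 rose and 0 fell.

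Among the small-subunit genes, *Rps9*, a protein at the mRNA entry site, stood at 281, 299 and 289.8 CPM in control and at 365, 511 and 318 CPM with TGFβ. The groups did not overlap, and TGFβ replicate 2 was the highest. The log2 fold change was 0.46 ± 0.13 (SE) with an edgeR adjusted p of 0.00758. *Rpsa*, which encodes a small-subunit protein also described as a laminin receptor, stood at 14.7, 14.6 and 16.1 CPM in control and at 24.0, 44.5 and 22.6 CPM with TGFβ, again without overlap. Its log2 fold change was 1.04 ± 0.21 (edgeR adjusted p = 0.000591), and 0.62 without TGFβ replicate 2 (0.00486).

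*Rps20*, another small-subunit gene, stood at 287, 322 and 299 CPM in control and at 452, 817 and 305 CPM with TGFβ, so TGFβ replicate 3 lay within the control range. Its rise of 0.80 ± 0.27 (edgeR adjusted p = 0.0404) no longer passed without any 1 of the control replicates 1, 2 or 3 (0.107, 0.0758 and 0.102), the inhibitor replicates 1, 2 or 3 (0.0513, 0.0537 and 0.0513), TGFβ replicate 1 (0.0511), or the combined replicates 1, 2 or 3 (0.0520, 0.0598 and 0.0513), all edgeR adjusted p. Without TGFβ replicate 2 the *Rps20* estimate was 0.33 (edgeR adjusted p = 0.0420), and without TGFβ replicate 3 it was 1.07 (0.000490).

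Among the large-subunit genes, *Rpl4*, which lines the tunnel through which the new peptide leaves, stood at 594, 566 and 585 CPM in control and at 758, 995 and 969.5 CPM with TGFβ. The groups did not overlap. The log2 fold change was 0.64 ± 0.13 (edgeR adjusted p = 0.000545), and with TGFβ replicate 1 alone in the group it was 0.37 (edgeR adjusted p = 0.0622), where that library is assumed to vary like those of the other groups. *Rpl34*, another large-subunit gene, rose by 0.42 ± 0.12 (edgeR adjusted p = 0.00827), and did not pass without control replicate 1 (0.0507). *Rpl13a*, a large-subunit protein also described in the interferon-gamma response of macrophages, stood at 73.4, 76.7 and 76.3 CPM in control and at 124, 153 and 104 CPM with TGFβ. No TGFβ library came near the control range, and its log2 fold change of 0.76 ± 0.12 had the lowest adjusted p of the members (edgeR, 9.04e-05).

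The 3 largest rises belonged to *Rpl19*, *Rpl18* and the paralog *Rpl36al*. *Rpl18* stood at 38.9, 34.4 and 29.3 CPM in control and at 55.9, 115 and 55.5 CPM with TGFβ, a log2 fold change of 1.17 ± 0.26 (edgeR adjusted p = 0.00345). *Rpl14*, at 138, 157 and 147 CPM in control and 209.8, 414 and 185 CPM with TGFβ, rose by 0.88 ± 0.24 on the log2 scale (edgeR adjusted p = 0.0122). In both genes TGFβ replicate 2 was far above the other TGFβ libraries, which still lay above every control. Without that library the log2 fold changes were 0.70 for *Rpl18* and 0.42 for *Rpl14* (edgeR adjusted p = 0.000635 and 0.000684).

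*Rpl19* stood at 6.81, 7.75 and 4.33 CPM in control and at 11.8, 22.3 and 7.65 CPM with TGFβ, so the groups overlapped. Its log2 fold change was 1.24 ± 0.36 (edgeR adjusted p = 0.0131). It did not pass without control replicate 3 (edgeR adjusted p = 0.0670) or TGFβ replicate 2 (0.0849). *Rpl36al* stood at 9.49, 6.42 and 7.56 CPM in control and at 14.1, 27.4 and 7.65 CPM with TGFβ, and also overlapped. Its 1.16 ± 0.35 (edgeR adjusted p = 0.0176) did not pass without control replicate 2 or 3 (0.0746 and 0.0640) or TGFβ replicate 2 (0.126).

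*Rpl7* was the member that fell. It stood at 21.0, 14.4 and 19.4 CPM in control and at 12.3, 6.46 and 14.5 CPM with TGFβ, where the highest TGFβ library just overlapped the lowest control. The log2 fold change was -0.82 ± 0.24 (edgeR adjusted p = 0.0116). It did not pass without control replicate 1 (edgeR adjusted p = 0.0546) or TGFβ replicate 2 (0.0564).

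The P-stalk recruits elongation factors to the ribosome. *Rplp0*, its base, stood at 254, 263 and 272 CPM in control and at 370.0, 323 and 285 CPM with TGFβ, without overlap. It rose by 0.31 ± 0.10 on the log2 scale (edgeR adjusted p = 0.0163), and did not pass without control replicate 1 or 2 (0.0718 and 0.0561) or TGFβ replicate 1 (0.101). *Rplp1* stood at 477, 503 and 504 CPM in control and at 644, 1158 and 566 CPM with TGFβ. It rose by 0.68 ± 0.20 (edgeR adjusted p = 0.0161), and did not pass without control replicate 1 (0.0530). Without TGFβ replicate 2 the *Rplp1* estimate was 0.29 (edgeR adjusted p = 0.00397). *Rplp2*, the partner of *Rplp1* in the stalk, was at 32.8 ± 3.21 CPM in control and at 31.7, 15.8 and 61.2 CPM with TGFβ, and its log2 fold change was 0.02 ± 0.40.

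**Figure D3:**
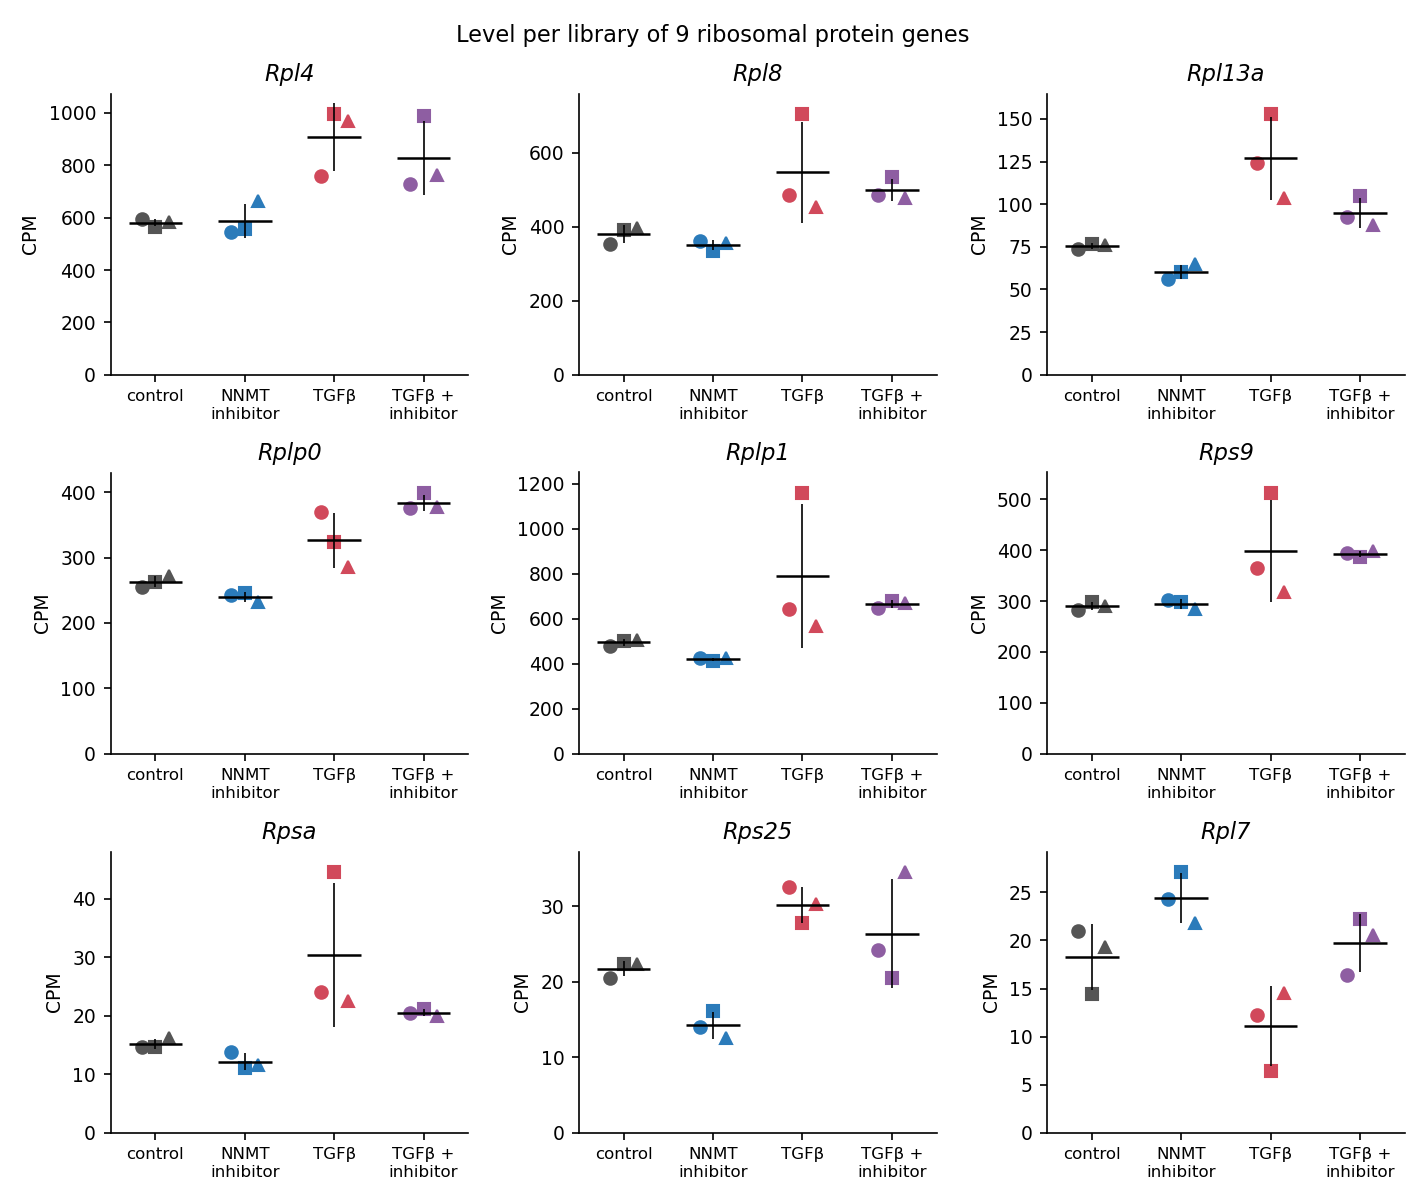
Level in CPM of 9 ribosomal protein genes in each library (circle, square and triangle for replicates 1, 2 and 3), with the group mean as a horizontal line and 1 SD as a vertical line (n = 3). *Rpl4*, *Rpl8*, *Rpl13a*, *Rplp0*, *Rplp1*, *Rps9* and *Rpsa* are higher in every TGFβ library than in every control, *Rps25* is lowest with the inhibitor alone, and *Rpl7* has its lowest mean with TGFβ alone.

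The TGFβ libraries did not raise the same genes to the same extent. Of the 52 members at a mean of 10 CPM or more, 11 were at least 2-fold higher in TGFβ replicate 2 than in replicate 3, and 7 were at least 2-fold higher in replicate 3. This was not particular to the members. Over all tested genes, counts of TGFβ replicates 1 and 2 differed by 43.8 times what sampling alone gives (chi-square over its degrees of freedom). The value was 32.9 for replicates 2 and 3 and 6.36 for replicates 1 and 3. *Rpl3*, a catalytic-centre protein, stood at 59.8, 141 and 40.6 CPM in TGFβ replicates 1, 2 and 3, while *Rpl30* stood at 47.5, 17.0 and 65.8 CPM. *Rps14* was at 599.9, 299 and 551 CPM, against 562 ± 6.47 CPM in control. Replicate 2 therefore held both the highest and the lowest value for many members. The summed level hides this, since 32 of the 52 lay above the control mean in all 3 TGFβ libraries and 2 below it in all 3. In the combined group 43 lay above the inhibitor mean in all 3 libraries and 2 below. These counts of members by library were not made over all genes, so they cannot be set against genes in general.

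The median difference from the control mean was nevertheless alike in the 3 TGFβ libraries, at 0.35, 0.42 and 0.33 on the log2 CPM scale over the 79 tested genes. Replicate 2 also had the lowest share of *Malat1* (0.981%, against 1.49 and 1.58% in replicates 1 and 3), and the part of this in the result was not tested. The difference between replicates 2 and 3 had a Pearson's r of 0.075 with the GC content of the coding end over the 52 genes, which share the 2 libraries.

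**Figure D4:**
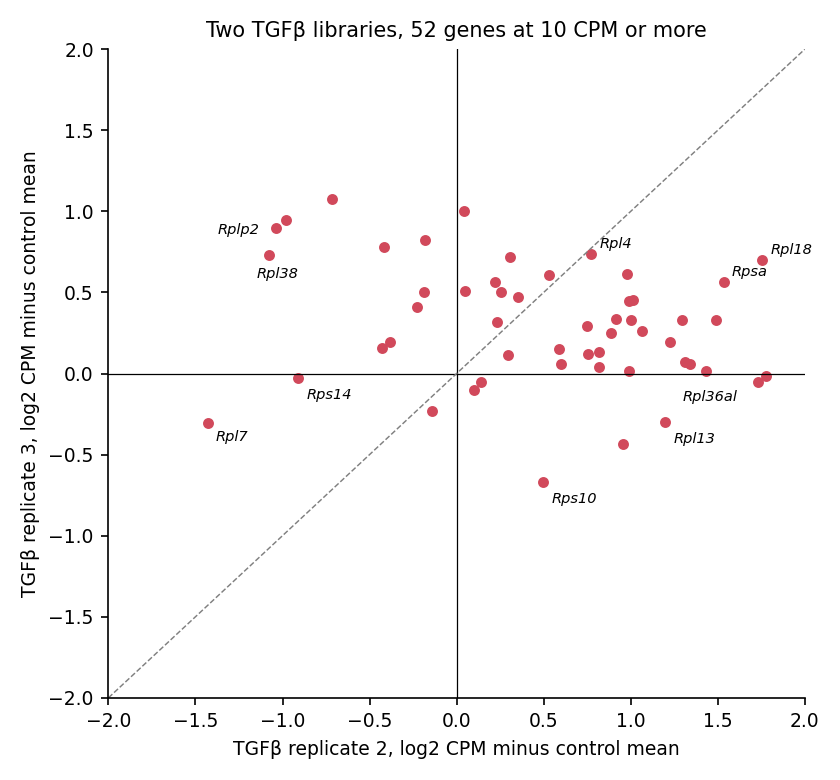
Log2 CPM minus the control mean in TGFβ replicate 2 (x) and replicate 3 (y) for the 52 members at a mean of 10 CPM or more. Both axes use the same control mean, and the dashed line marks equal values. The points spread across both sides of the line: *Rpl36al* and *Rpl13* are high in replicate 2 and at or below 0 in replicate 3, *Rpl38* and *Rplp2* are high in replicate 3 and below 0 in replicate 2, and *Rpl4*, *Rpl18* and *Rpsa* are above 0 in both.

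The same question was asked among cells that received the inhibitor, by setting the combined group against the inhibitor group. This comparison shares no library with the one above. Here 21 of 79 ribosomal protein genes rose and 0 fell in the edgeR test, against 18% of all genes that rose and 18.3% that fell. The median log2 fold change was 0.37, with 69 estimates above 0. The genes that rose were 10 of 42 in the large subunit, 9 of 30 in the small subunit and 2 of 3 in the P-stalk. Without TGFβ replicate 2, which enters only the filter, the scaling and the shared estimate of spread, the count was 35, and with only these 2 groups in the fit it was 38.

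*Rplp0* had the lowest adjusted p of the members in this comparison. It stood at 243, 246 and 231 CPM with the inhibitor and at 375, 398 and 378 CPM with both, a rise of 0.68 ± 0.10 (edgeR adjusted p = 2.13e-05). *Rps25*, a small-subunit protein known from internal initiation on viral RNAs, stood at 14.0, 16.1 and 12.6 CPM and at 24.2, 20.5 and 34.5 CPM, a rise of 0.89 ± 0.18 (edgeR adjusted p = 0.000575). In both genes the groups were fully apart. *Rpsa* rose by 0.76 ± 0.21 (edgeR adjusted p = 0.00842) and *Rplp1* by 0.66 ± 0.20 (0.0182).

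*Rpl28* had the largest estimate, 1.54 ± 0.44 (edgeR adjusted p = 0.0103), at a low level of 1.32, 1.77 and 0.328 CPM with the inhibitor and 3.47, 2.92 and 3.57 CPM with both. All words at its coding end were shared with other genes, as were those of *Rps12*, *Rps25*, *Rpsa*, *Rpl5*, *Rpl7*, *Rpl13a*, *Rpl18*, *Rpl19* and *Rpl36al*. *Rps12* stood at 2.75, 2.96 and 3.82 CPM with the inhibitor and at 6.94, 4.27 and 7.40 CPM with both. Its 0.96 ± 0.29 (edgeR adjusted p = 0.0148) did not pass without inhibitor replicate 1 or 2 (0.0580 and 0.0512) or combined replicate 1 or 3 (0.0572 and 0.0640).

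**Figure D5:**
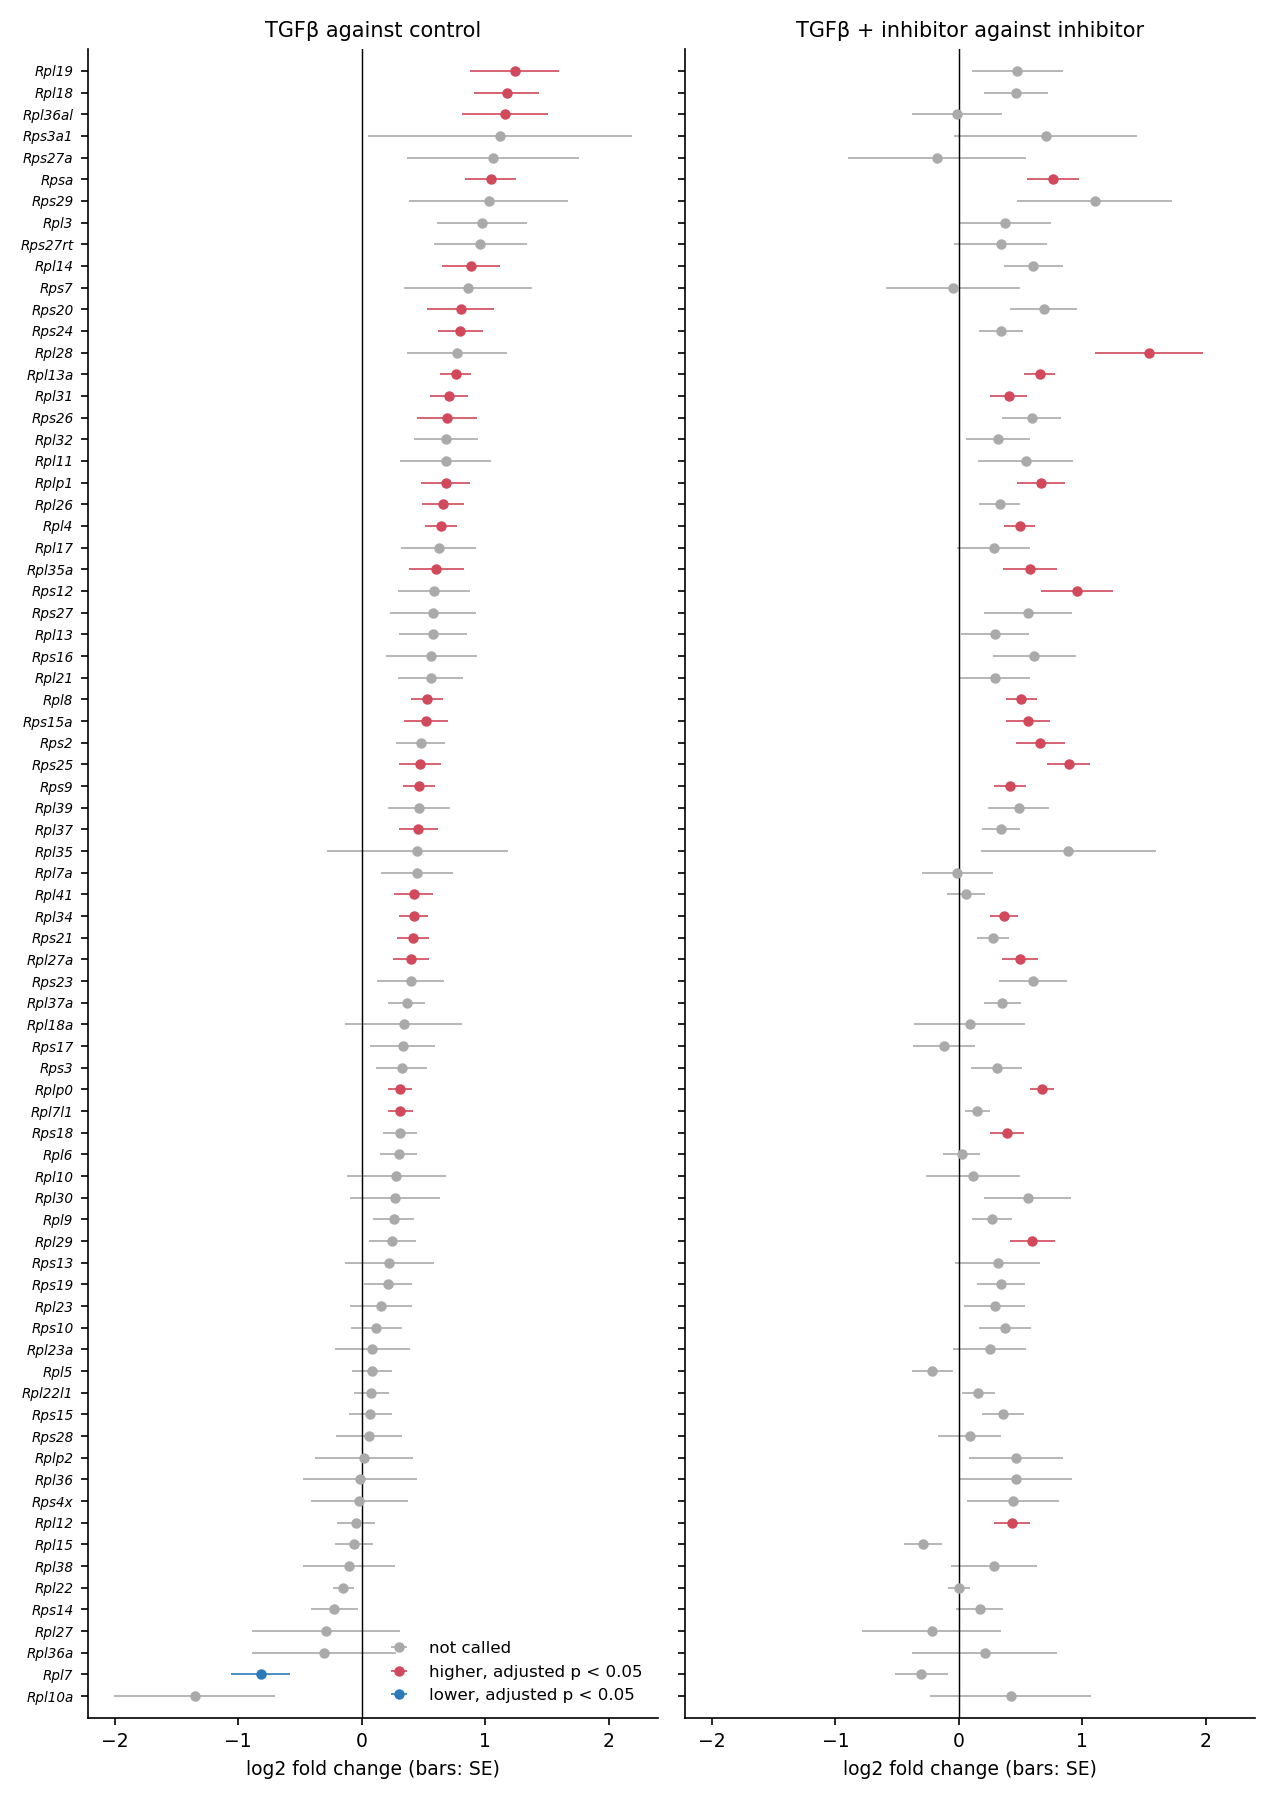
Log2 fold change with its SE for 76 of the 79 tested ribosomal protein genes, TGFβ against control on the left and the combined group against the inhibitor group on the right, in 1 order, that of the left panel. Genes with an edgeR adjusted p below 0.05 are coloured, red for higher and blue for lower. Most points lie to the right of 0 in both panels (65 and 66 of the 76 drawn).

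Of the genes that rose, 15 did so in both comparisons, which is 55.6% of the 27 and 71.4% of the 21. Among all genes tested, 2636 rose in the first and 2448 in the second, and the 1820 that rose in both were 69.0% and 74.3% of these, so the overlap of the members was no larger than that of genes in general. They included *Rps9*, *Rpsa*, *Rpl4*, *Rpl8*, *Rpl13a*, *Rplp0* and *Rplp1*. The estimate was above 0 in both for 62 of 79 genes and below 0 in both for 4. Leaving out any 1 library in turn, 12 genes passed each time in the first comparison and 12 in the second. *Rpl4*, *Rpl8*, *Rpl13a*, *Rps9* and *Rpsa* were among those in both of these sets. No such count was made over all genes, so the members cannot be set against genes in general here. *Rpl8*, a large-subunit protein near the catalytic centre, went from 381 ± 23.7 CPM in control to 548 ± 137 CPM with TGFβ, and from 352 ± 14.1 CPM with the inhibitor to 499.6 ± 29.9 CPM with both (SD, n = 3).

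The inhibitor alone was then set against control, to ask what it changed without TGFβ. Of the 79 genes, 0 rose and 1 fell in the edgeR test, against 2.47% and 5.8% of all genes, and the median log2 fold change was -0.02. An unadjusted edgeR p below 0.05 was reached by 4 of the 79 members, *Rps25*, *Rpl13a*, *Rpl22l1* and *Rpl28*, and by 2933 of all 13581 genes. Among the 52 members at a mean of 10 CPM or more, the estimates ran from -0.61 to 0.42. The gene that fell was *Rps25*, at 20.5, 22.3 and 22.4 CPM in control and 14.0, 16.1 and 12.6 CPM with the inhibitor. These levels did not overlap, and the log2 fold change was -0.61 ± 0.18 (edgeR adjusted p = 0.0373).

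The *Rps25* call rested on each single library of the 2 groups. Without control replicates 1, 2 and 3 in turn the edgeR adjusted p was 0.0811, 0.119 and 0.119, and without inhibitor replicates 1, 2 and 3 it was 0.108, 0.0545 and 0.149. With the counts of pseudogenes added to their parent genes, the log2 fold change was -0.20 (edgeR adjusted p = 0.518). Without TGFβ replicate 2, 1 member rose with the inhibitor (*Rpl22l1*) and 3 fell (*Rps25*, *Rpl13a* and *Rplp1*). With only these 2 groups in the fit, *Rpl22l1*, *Rpl7*, *Rps14* and *Rps21* rose, 4 in all, and *Rps25*, *Rpl13a*, *Rplp1* and *Rpl27a* fell, also 4. *Rpl22l1*, a paralog that can take the place of *Rpl22*, stood at 86.2, 90.7 and 89.5 CPM in control and at 110.2, 114 and 115 CPM with the inhibitor. The groups were apart, but the difference of 0.35 ± 0.14 did not pass (edgeR adjusted p = 0.131). *Rpl22* itself was at 287 ± 16.1 and 294 ± 6.02 CPM.

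The combined group was set against TGFβ alone to ask what the inhibitor changed in TGFβ-treated cells. In the edgeR test 1 of 79 ribosomal protein genes rose and 2 fell, against 3.45% and 6.97% of all genes, with a median log2 fold change of -0.08. Scaled by library size alone, the split was 1 higher and 4 lower. *Rpl7* was higher, at 12.3, 6.46 and 14.5 CPM with TGFβ and 16.4, 22.2 and 20.6 CPM with both. These levels did not overlap, and the difference was 0.93 ± 0.24 (edgeR adjusted p = 0.0185). It did not pass without TGFβ replicate 2 (0.0535) or combined replicate 2 or 3 (0.0741 and 0.0700).

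*Rpl5*, which with *Rpl11* and 5S rRNA forms the particle that can bind MDM2, was lower. It stood at 26.6, 27.1 and 23.7 CPM with TGFβ and at 20.5, 12.9 and 16.9 CPM with both, without overlap, a difference of -0.64 ± 0.17 (edgeR adjusted p = 0.0210). It did not pass without TGFβ replicate 1 (0.0514) or combined replicate 2 or 3 (0.113 and 0.0745). *Rpl11* was at a mean of 3.75 CPM in control, and its difference here was -0.54 ± 0.37.

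*Rpl13a* was lower with both, at 92.3, 104.6 and 88.0 CPM, than with TGFβ alone, at 124, 153 and 103.7 CPM, and the highest and lowest of these just overlapped. The difference was -0.43 ± 0.12 (edgeR adjusted p = 0.0328). It did not pass without control replicates 1, 2 or 3 (0.0506, 0.0536 and 0.0540), inhibitor replicate 2 (0.0551), TGFβ replicate 2 (0.0884) or combined replicates 1 or 3 (0.113 and 0.144). Without TGFβ replicate 3, the shallow library, 6 members rose and 9 fell in this comparison, and without TGFβ replicate 1, 4 rose. With only these 2 groups in the fit, 0 rose and 0 fell.

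Whether the inhibitor acted differently with and without TGFβ was tested as the interaction. In the edgeR test 0 of 79 members passed in either direction, against 0.641% higher and 0.471% lower among all genes. The lowest edgeR adjusted p was 0.306 (*Rplp0*, 0.36 ± 0.14). An unadjusted edgeR p below 0.05 was reached by 3 of the 79 members (*Rplp0*, *Rpl12* and *Rpl36al*) and by 1420 of all 13581 genes. DESeq2 also called 0 members. Without TGFβ replicate 2, 1 member passed, *Rplp1*. A difference that missed the threshold does not show that the effects were alike, and estimates ran from -1.17 to 0.51 among the 52 members at 10 CPM or more.

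Genes that work with ribosomal proteins were read from lists. *Fau* and *Rack1* are ribosomal proteins named outside the symbol rule. With TGFβ, *Rack1* rose by 0.47 ± 0.11 on the log2 scale (edgeR adjusted p = 0.00300) and *Fau* by 0.92 ± 0.28 (0.0141). With both against the inhibitor alone *Rack1* rose by 0.52 ± 0.11 (edgeR adjusted p = 0.00145), while *Fau* did not pass. Of 21 other genes with a known TOP tract, 10 rose with TGFβ and 0 fell (47.6% higher, against 19.4% of all genes), with a median log2 fold change of 0.31, and 9 rose and 0 fell with both against the inhibitor (42.9%, against 18% of all genes). This second count was 5 without inhibitor replicate 1 or 2. *Npm1*, a nucleolar chaperone of ribosome assembly, rose in both, by 0.61 ± 0.09 and 0.73 ± 0.09.

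With the inhibitor alone 2 of the 21 TOP genes fell (9.52%, against 5.8% of all genes), the intermediate filament gene *Vim* by 0.71 ± 0.09 on the log2 scale (edgeR adjusted p = 7.9e-05) and *Npm1* by 0.31 ± 0.09 (0.0332). *Vim* was also lower with both than with TGFβ alone, by 0.33 ± 0.09 (0.0312).

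Translation factors and their mTOR control were read from 48 genes. With TGFβ 23 rose (47.9%, against 19.4% of all genes) and 4 fell (8.33%, against 17.1%), with a median log2 fold change of 0.30, and 15 rose without control replicate 3. With both against the inhibitor 22 rose (45.8%, against 18%) and 3 fell (*Ddit4*, *Eif4g3* and *Tsc2*, 6.25% against 18.3%). *Eef1e1*, a component of the tRNA synthetase complex, rose by 1.00 ± 0.29 (edgeR adjusted p = 0.0143). Those that fell with TGFβ were *Eif4g3* and *Eif2b5*, which serve initiation, and *Ddit4*, an inhibitor of mTORC1, with a log2 fold change of -0.87 ± 0.13 (3.11e-05), and *Eef2k*, the kinase that inactivates elongation factor 2, with -0.73 ± 0.24 (0.0243).

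Of 8 chaperones and escorts of ribosomal proteins, 3 rose with TGFβ (37.5%, against 19.4% of all genes). *Ltv1*, an assembly factor of the small subunit, rose by 0.87 ± 0.14 (edgeR adjusted p = 6.19e-05), *Heatr3*, which carries RPL5 and RPL11, by 0.62 ± 0.17 (0.00807), and *Nvl*, an ATPase of large-subunit maturation, by 0.37 ± 0.12 (0.0186). *Ltv1* was lower with both than with TGFβ alone (-0.52 ± 0.14, 0.0198). The other 5, *Pdcd2l*, *Pdcd2*, *Tsr2*, *Bccip* and *Grwd1*, had estimates of 0.02 to 0.43 with TGFβ and did not pass. With both against the inhibitor *Ltv1*, *Nvl* and *Pdcd2l* rose, 3 in all (37.5%, against 18% of all genes), and 1 rose without control replicate 3, inhibitor replicate 2 or combined replicate 1, and 6 without TGFβ replicate 2, while scaling by library size alone gave 1.

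Diamond-Blackfan anaemia is a failure of red cell production that can be caused by loss of 1 copy of a ribosomal protein gene. Of 19 members on its list, 7 rose with TGFβ: *Rpl8*, *Rps24*, *Rps26*, *Rpl18*, *Rpl35a*, *Rpl26* and *Rpl31* (36.8%). The share was 34.2% over all tested members, close to that of the list, and 19.4% over all genes. This first count was 5 without any 1 of the control or inhibitor replicates. With both against the inhibitor *Rpl8*, *Rpl35a* and *Rpl31* rose, 3 in all (15.8%). This share was below the 26.6% of all tested members and the 18% of all genes. Leaving out single libraries changed the second count most, to 1 without control replicate 1, 2 or 3, inhibitor replicate 2 or 3, or combined replicate 1, and to 7 without TGFβ replicate 2, and scaling by library size alone gave 1.

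Members were also split by the TOP tract at the annotated start. With TGFβ, 4 of the 13 tested genes with a tract rose, with a median log2 fold change of 0.45, as did 18 of the 46 without one, with a median of 0.42. Among the 20 that were not matched in the sequences around annotated starts used here, 5 rose and 1 fell. Among all genes 19.4% rose. The difference between these sets was not tested. Of 40 tested pseudogenes with ribosomal protein symbols, 3 rose with TGFβ and 0 fell, a smaller share than the 19.4% and 17.1% of all genes. These were *Rpl14-ps1*, *Rps24-ps3* and *Rps13-ps2*, of which the last went from 179 ± 10.7 CPM to 255 ± 45.2 CPM.

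Paralogs were read beside their parent genes. *Rpl7l1*, a nucleolar relative of *Rpl7*, stood at 50.3, 52.5 and 51.6 CPM in control and at 66.9, 60.6 and 64.3 CPM with TGFβ, without overlap. It rose by 0.31 ± 0.10 (edgeR adjusted p = 0.0209) where *Rpl7* fell, and did not pass without control replicates 1, 2 or 3 (0.0732, 0.0515 and 0.0641), inhibitor replicate 2 (0.0510) or TGFβ replicate 1 (0.0735). *Rpl36al* rose where its parent *Rpl36a*, at 1.93 ± 0.440 CPM in control, had an estimate of -0.31 ± 0.58. *Rps27rt* had 0.96 ± 0.38 (edgeR adjusted p = 0.0528) beside 0.58 ± 0.35 for *Rps27*, neither past the threshold.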

How the data were processed

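Libraries were made from 100 ng of total RNA with the QuantSeq 3′ FWD kit, per the labels' protocols, which reads transcript ends, so counts do not scale with gene length. The deposited values are whole-number counts per gene. STAR and HTSeq are named in the submitters' processing notes, with no versions, as is the build GRCh38, although the identifiers are mouse. The strand used is not given in the sources used here, so reads of overlapping genes on opposite strands cannot be told apart. Reads outside annotated genes, 21.1 to 26.8% per library, and other HTSeq summary classes were left out. Symbols were found for 55141 of 55487 identifiers.

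The filter filterByExpr kept 13581 genes. After TMM scaling, 1 model of 4 group means was fitted with the quasi-likelihood functions of edgeR 4.0.16 under R 4.3.3, with Benjamini-Hochberg adjustment over all tested genes and calls below 0.05. Log2 CPM used a prior count of 3. The procedure was tested on simulated data. Alternatives were DESeq2 1.42.0, library size alone, TMM without ribosomal protein genes, no low-count filter, only the groups compared, a replicate block, each library left out, TGFβ replicates 2 and 3 left out together and, added after seeing the data, pseudogene counts added to the parent gene. Named were the called members of each comparison (the 6 largest in a direction where there were more), the 5 with the highest mean (a rule for naming, with no comparison between genes), the P-stalk, paralogs with their parents, *Rpl5*, *Rpl11*, *Rpsa* and *Rps6*, the 3 largest called genes of a list, and the chaperone list. Results of some genes that this rule covers are not reported here. Other members were named after their values were seen: *Rps9*, *Rpl8*, *Rpl30*, those beside sequences, and those in counts and figures. The members and lists were chosen with earlier results of these data known. Sequences are from RefSeq (GRCm38.p6) and GENCODE M21 transcripts. The labels do not say whether replicates were separate cultures, and the p-values cover no more than the spread among these libraries.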

Additional observations from a re-analysis of the deposited data

How the results depend on the processing

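Counts are given as higher and lower. TGFβ against control gave 27 and 1, with library size alone 16 and 2 (median log2 fold change 0.35) and with only the groups compared 15 and 0. Without TGFβ replicates 2 and 3 the count of genes that fell was 0 and the median 0.34. Leaving out single libraries gave 16 to 30 and 0 to 1, with medians of 0.34 to 0.50. The inhibitor against control gave 2 lower with library size alone, 4 and 4 with only the groups compared, 0 lower with the replicate block and 0 lower with pseudogenes added. Single libraries left out gave 0 to 1 and 0 to 3, with medians of -0.056 to -0.0043. The combined group against TGFβ gave 2 and 4 in DESeq2, 4 lower with library size alone, 3 and 6 with no filter, 0 and 0 with only the groups compared, and 0 and 1 without TGFβ replicates 2 and 3 (median 0.057). Single libraries left out gave 0 to 6 and 0 to 9, with medians of -0.15 to 0.025. The combined group against the inhibitor gave 38 higher with only the groups compared and 41 without TGFβ replicates 2 and 3, and single libraries left out gave 14 to 35 higher, 0 lower and medians of 0.37 to 0.45. The interaction gave 1 lower with no filter and a median of 0.11 without TGFβ replicates 2 and 3, and single libraries left out gave 0 to 1 higher, 0 lower and medians of -0.10 to 0.06. The cause of these moves was not tested.

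The summed share without mitochondrial transcripts was 0.833% in control, 0.829% with the inhibitor and 1.04% with both, and on TMM-scaled library sizes 0.736% in control. Single libraries left out gave 0.764 to 0.778%, 0.724 to 0.737%, 0.925 to 1.06% with TGFβ and 0.929 to 0.978%.

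Samples with the same replicate number did not deviate together: of 18 correlations, from -0.085 to 0.20, 1 was over 0.1. With the replicate block the counts were 24 and 1 for TGFβ, 0 and 0 for the inhibitor, 1 and 2 for the combined group against TGFβ, 20 and 0 for it against the inhibitor, and 0 and 0 for the interaction. No replicates were duplicates, their counts differing by 3.26 to 43.8 times what sampling alone gives (chi-square over its degrees of freedom). The highest values, 43.8 and 32.9, were those of TGFβ replicate 2 against TGFβ replicates 1 and 3. No called value changed sign, but the medians of the combined group against TGFβ and of the interaction, given above, did. Where TGFβ replicates 2 and 3 were left out, the lone TGFβ library is assumed to vary like those of the other groups. Members under 10 CPM (27 of those tested) gave 1 call with TGFβ, against 26 higher and 1 lower among the other 52.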
